A study of Mus musculus with 10 samples.

Results

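The replication-dependent histone genes are the clustered genes that supply the linker histone H1 and the core histones H2a, H2b, H3 and H4 for new chromatin. Their older symbols start with Hist1h, Hist2h, Hist3h or Hist4h, and a probe set was taken as a member when its only annotated gene carries such a symbol. Because the platform annotation already lists current names, 0 probe sets matched these prefixes as written, and the older symbols were found through the Entrez identifier in the RefSeq gene table. This gave 31 genes of the 19938 that have a row of their own: 5 of type H1, 5 of H2a, 11 of H2b, 3 of H3 and 7 of H4. Of these, 23 belong to the Hist1 group on chromosome 13, 4 to Hist2 on chromosome 3, 3 to Hist3 on chromosome 11 and 1 to Hist4 on chromosome 6.

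RNA came from B220+ cells sorted out of pre-B colonies after 7 days in methylcellulose culture. The groups were 5 Hspa9+/- mice, called heterozygous here, and 5 Hspa9+/+ littermates, called wild type. Bone marrow of each mouse was cultured on its own and hybridised to its own Mouse Gene 1.0 ST array. Hspa9, the gene of the mitochondrial chaperone mortalin, is the only gene the labels give as altered, and the comparison asks what loss of an allele does in cultured B cell precursors. The labels give neither the age or sex of the mice nor how the allele was made, and cells grown in colonies are not the precursors as they lie in the marrow. Values are log2 RMA expression as deposited, and differences are heterozygous minus wild type on that scale with n = 5 per genotype unless arrays are left out.

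As background, these histone genes are switched on as a cell enters S phase, when a new set of histones is needed for the copied DNA. Npat, a target of cyclin E and Cdk2, drives their transcription at the histone locus body. Their mRNAs carry no introns and end in a stem-loop in place of a poly(A) tail; the stem-loop binding protein Slbp and the U7 small nuclear ribonucleoprotein make that end, and the mRNAs are degraded when DNA synthesis stops. A few of the genes, H1f2, H2bc4 and H2bc21 among them, are also known to give polyadenylated transcripts in cells that do not divide. Pre-B colonies grow from precursors that divide in response to interleukin 7. The labels do not say whether cDNA synthesis was primed at the poly(A) tail or along the transcript.

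The control regions of the members are shown first, because the types differ in the motifs they hold. RefSeq promoter sequence (GRCm38.p6) was found for 26 of the 31 members, as 250 bases before to 50 after the start, and the 150 bases before the start are printed for 9 of them. The octamer, the binding element of Oct factors known from H2b and immunoglobulin promoters, was searched as ATTTGCAT and its reverse complement ATGCAAAT. The other motifs were the CCAAT box, read as ATTGG on the opposite strand, and a TATA motif, TATAAA with its reverse complement TTTATA. All were searched on both strands, the motifs do not overlap one another, and each match is in capitals. The 5 H2a and H2b windows below all hold an octamer. The windows of H2bc8 and H2ac8 overlap on opposite strands, and these genes are transcribed away from each other.
H2bc8: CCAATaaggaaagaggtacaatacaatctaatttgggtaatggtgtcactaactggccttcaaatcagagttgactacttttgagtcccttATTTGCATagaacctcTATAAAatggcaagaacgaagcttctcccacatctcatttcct
H2ac8: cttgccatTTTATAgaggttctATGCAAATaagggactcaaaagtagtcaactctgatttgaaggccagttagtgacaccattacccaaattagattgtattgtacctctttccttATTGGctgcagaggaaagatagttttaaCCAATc
H2bc14: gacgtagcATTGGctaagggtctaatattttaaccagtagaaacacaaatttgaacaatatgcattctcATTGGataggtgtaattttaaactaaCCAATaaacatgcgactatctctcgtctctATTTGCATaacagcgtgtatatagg
H2bc18: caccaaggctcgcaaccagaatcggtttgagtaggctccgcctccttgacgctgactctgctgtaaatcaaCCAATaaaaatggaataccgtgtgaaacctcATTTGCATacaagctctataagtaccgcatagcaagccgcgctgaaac
H2aw: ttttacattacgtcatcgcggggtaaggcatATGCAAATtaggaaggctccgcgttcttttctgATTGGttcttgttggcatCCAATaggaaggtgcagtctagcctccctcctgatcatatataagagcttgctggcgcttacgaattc
The windows lie at these places: H2bc8 at chr13:23571250-23571399 (plus strand), H2ac8 at chr13:23571221-23571370 (minus strand), H2bc14 at chr13:21721894-21722043 (plus strand), H2bc18 at chr3:96269550-96269699 (plus strand) and H2aw at chr11:58954535-58954684 (plus strand). The octamer starts at position -59 in H2bc8, -25 in H2bc14 and -48 in H2bc18, counted from the transcription start.

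The next 4 windows come from types without an octamer: the H1 gene of highest mean signal, the H1 gene with a polyadenylated form, an H3 gene and the H4 gene of highest mean signal.
H1f5: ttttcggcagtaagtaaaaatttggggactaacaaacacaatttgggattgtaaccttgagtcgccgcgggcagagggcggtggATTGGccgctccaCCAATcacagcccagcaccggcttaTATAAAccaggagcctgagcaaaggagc
H1f2: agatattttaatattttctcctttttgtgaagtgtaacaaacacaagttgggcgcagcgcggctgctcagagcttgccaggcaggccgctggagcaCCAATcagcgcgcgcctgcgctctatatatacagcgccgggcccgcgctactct
H3c4: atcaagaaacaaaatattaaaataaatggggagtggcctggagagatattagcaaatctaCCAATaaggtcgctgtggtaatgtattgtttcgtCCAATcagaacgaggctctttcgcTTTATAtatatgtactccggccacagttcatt
H4c4: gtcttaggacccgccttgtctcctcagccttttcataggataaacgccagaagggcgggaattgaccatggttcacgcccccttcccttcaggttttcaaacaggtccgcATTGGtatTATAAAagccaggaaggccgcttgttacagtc
They lie as follows: H1f5 at chr13:21780626-21780775 (minus strand), H1f2 at chr13:23738657-23738806 (plus strand), H3c4 at chr13:23575613-23575762 (plus strand) and H4c4 at chr13:23581418-23581567 (plus strand).

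Over the full promoter windows, 9 of 26 members held the octamer, and all 9 were of type H2a (4 of 5) or H2b (5 of 8). Of all 32851 promoters of the same length, 1.74% held it. The TATA motif stood in 16 of 26 members against 13.6% of all promoters, and the CCAAT box in 22 of 26 against 37.4%. The CCAAT box was in each H1, H2a, H2b and H3 promoter examined, but in 2 of 6 of type H4. The divergent pairs H2ac8 with H2bc8 and H2ac1 with H2bc1 share 279 and 220 bases of their windows, so these promoters are not independent. A match describes letters in a window and not a bound site. The genotype difference had a median of 0.05 over the 9 octamer members, with values between -0.11 and 0.19, and a median of 0.05 over the 4 other H2a and H2b members with a promoter.

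Hspa9 was measured first as a check of the labels. It had 9.52, 8.92, 9.30, 9.21 and 8.97 in the heterozygous arrays 1 to 5, against 9.49, 9.57, 10.36, 10.17 and 9.99 in the wild type arrays 1 to 5. The difference was -0.73 (SE 0.185), which is 60.3% of the wild type level, with a two-sided exact permutation p of 0.01587 over 252 arrangements and a limma adjusted p of 0.345. Ptprc, whose protein holds the B220 epitope of the sort, differed by -0.68 (limma adjusted p = 0.490). The B cell receptor gene Cd79a averaged 11.68 ± 0.10 in heterozygous arrays and 11.82 ± 0.20 in wild type arrays (SD). Of 6 T cell and NK cell genes 4, and of 7 plasmacytoid dendritic cell genes 4, were higher at an unadjusted p under 0.05 in limma. Of 14 neutrophil, 9 erythroid and 5 megakaryocyte genes 0 were higher, and of 13 B lineage genes 1 was higher and 4 lower. Of all genes, 6.79% were higher and 4.25% lower at that p. Apart from a model with the macrophage genes, the part of these markers in the results was not tested. None of 14 monocyte and macrophage genes passed, but their mean was 7.01, 9.46, 6.93, 6.71 and 6.97 in heterozygous arrays, against 8.88, 7.29, 5.59, 5.47 and 5.55 in wild type arrays. The mean of the neutrophil genes was also highest in heterozygous array 2 (7.46) and wild type array 1 (6.76), as was that of the megakaryocyte genes (7.35 and 7.19). These arrays stand apart, and the counts, the medians and the members that moved most are also given without them. In such bulk samples, fewer cells of a type and less RNA per cell cannot be told apart.

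No histone gene passed the threshold between the genotypes. limma, adjusted over all 14953 genes above the filter on dim rows, called 0 of the 30 members that passed the filter, beside 0% of all genes. At an unadjusted p under 0.05 limma gave 1 member lower and 0 higher, where the share of all genes was 11.0% (6.79% higher and 4.25% lower). In 0 of 30 members did the arrays of the genotypes fail to overlap, against 2.28% of all genes. The 1 member past the unadjusted threshold was H2bc21, lower in heterozygous cells.

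The differences lay between -0.41 for H1f2 and 0.35 for H3c15, with 19 above 0 and 11 below. Their median was 0.041, and that of all genes tested was 0.058; 63.3% of members and 61.3% of all genes lay above 0. The mean over the 30 members was 8.87, 9.23, 8.86, 9.34 and 9.40 in heterozygous arrays, against 9.53, 9.47, 8.86, 8.88 and 8.95 in wild type arrays. The ranges overlapped, with the highest value in wild type array 1, and the means were 9.14 ± 0.26 in heterozygous and 9.14 ± 0.33 in wild type arrays (SD). Without heterozygous array 2 and wild type array 1, 0 members passed the adjusted and 2 the unadjusted threshold (H1f2 and H2bc21, both lower), where the share of all genes past the unadjusted one was 16.1%. The median of the members was then 0.112 and that of all genes 0.067. The differences ran from -0.55 for H1f2 to 0.58 for H3c15, with 21 above 0 and 9 below, and H2bu1-ps and H4c8 turned from below to above 0. Without wild type array 1 alone, H2bc4 turned to above 0 as well, and 22 members lay above 0.

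How small a difference the arrays could have shown varied among members. The 95% interval of the difference lay within 1 log2 unit of 0 for 27 members and within 0.5 for 14. It reached past 1 for 3, namely H1f2, H2bc4 and H3c15. The interval extended 0.195 to 0.984 on either side of the difference, with a median of 0.416. The pooled SD between arrays of 1 genotype had a median of 0.325 for members and 0.228 for all genes, and was lowest for H4c4 (0.0991) and highest for H3c15 (0.819).

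**Figure D1:**
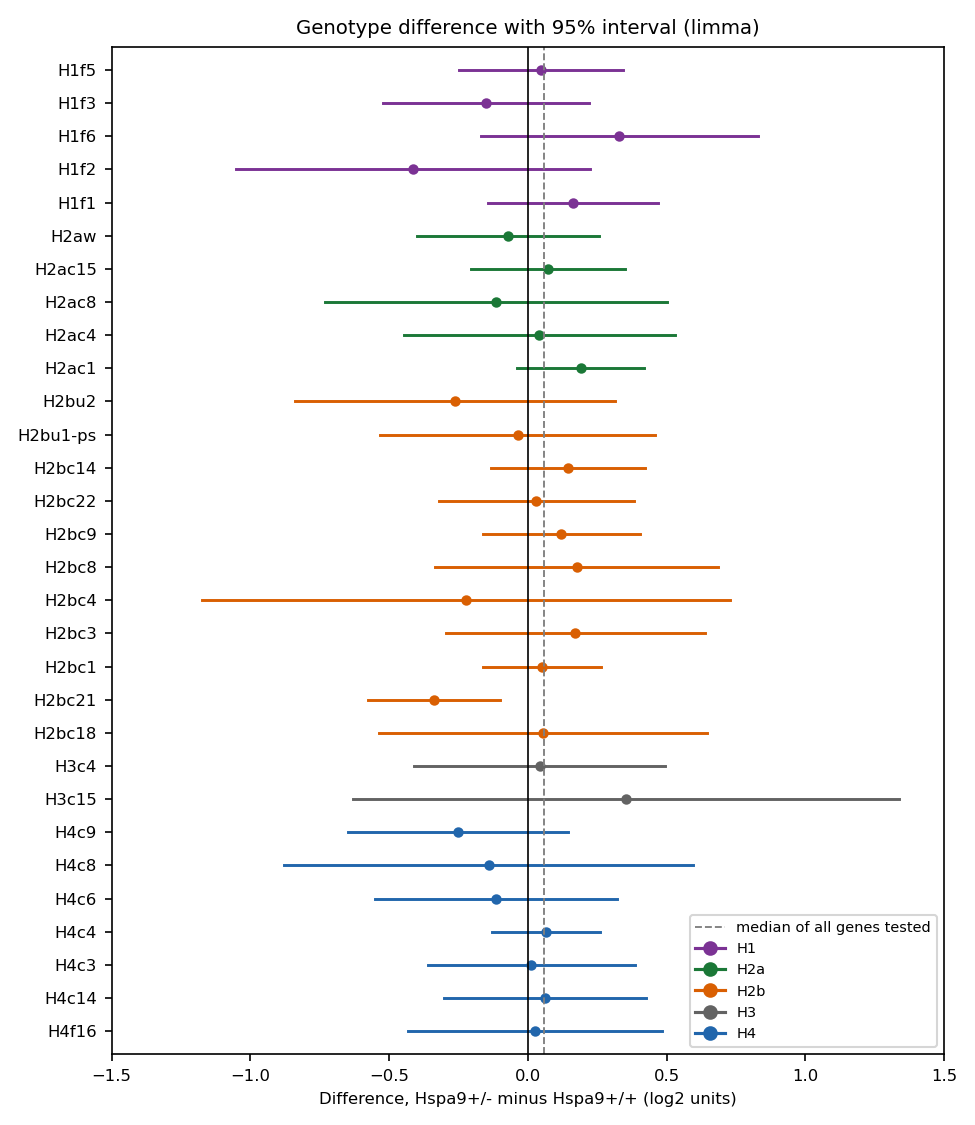
Genotype difference of the 30 members tested, heterozygous minus wild type, in log2 units on the horizontal axis, with 1 row per gene coloured by histone type. Points are limma differences, bars their 95% intervals, and the dashed line is the median of all genes tested (0.058); the interval of H2bc21 is the only one that leaves out 0.

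The H1 genes encode linker histones, which bind DNA where it enters and leaves the nucleosome. None of the 5 passed the threshold, and their median difference was 0.048 (3 above 0, 2 below). H1f2 had 9.20, 10.71, 9.62, 9.80 and 9.71 in heterozygous arrays, against 10.59, 10.60, 9.56, 9.84 and 10.51 in wild type arrays. Heterozygous array 2 was the highest of all 10, and the other heterozygous arrays lay within or below the wild type range. The difference of -0.41 (SE 0.290) had a limma adjusted p of 0.566. With single arrays left out it lay between -0.64 and -0.26. Without heterozygous array 2 it was -0.64, with an adjusted p of 0.335 and an unadjusted p of 0.0235 in limma; over all alternative settings the adjusted p lay between 0.223 and 0.838.

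H1f6, the linker histone of spermatocytes, had 5.92, 6.31, 6.11, 6.20 and 6.75 in heterozygous arrays, against 6.42, 6.43, 5.80, 5.42 and 5.57 in wild type arrays. Wild type arrays 3, 4 and 5 lay below every heterozygous array and wild type arrays 1 and 2 among them (difference 0.33, SE 0.227). H1f1, a linker histone known from thymus, spleen and testis, had 11.54, 11.65, 11.54, 11.94 and 11.92 in heterozygous arrays, against 11.79, 11.84, 11.43, 11.39 and 11.33 in wild type arrays. Its difference was 0.16 (SE 0.139), with the groups overlapping. H1f5, the H1 member of highest mean signal, had 11.84, 11.95, 11.78, 12.22 and 12.37 in heterozygous arrays, against 12.16, 12.15, 11.85, 11.84 and 11.91 in wild type arrays. The ranges overlapped almost fully and the difference was 0.05. H1f3 differed by -0.15.

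The H2a genes encode a core histone that pairs with H2b. None of the 5 passed the threshold, and the differences ran from -0.11 to 0.19 with a median of 0.041. H2ac1, an H2a of the male germ line, had 7.11, 7.16, 7.07, 7.21 and 7.47 in heterozygous arrays, against 7.16, 7.13, 6.94, 6.98 and 6.86 in wild type arrays. Wild type arrays 3, 4 and 5 were the lowest of the 10, while arrays 1 and 2 lay inside the heterozygous range. The difference of 0.19 (SE 0.104) had an unadjusted p of 0.0963 and an adjusted p of 0.503 in limma.

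H2ac15, the H2a member of highest mean signal, had 11.60, 11.70, 11.63, 11.85 and 11.98 in heterozygous arrays, against 11.86, 11.97, 11.53, 11.45 and 11.59 in wild type arrays. H2aw, the only H2a member outside the Hist1 group, had 9.79, 9.98, 9.80, 10.28 and 10.36 in heterozygous arrays, against 10.21, 10.45, 9.94, 9.92 and 10.06 in wild type arrays. Both genes were highest in heterozygous arrays 4 and 5 and in wild type arrays 1 and 2, with differences of 0.07 and -0.07. H2ac4 differed by 0.04 and H2ac8 by -0.11.

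Type H2b held the 1 member past the unadjusted threshold. H2bc21, known from mouse olfactory neurons as the H2b variant H2be, had 7.25, 7.35, 7.53, 7.72 and 7.53 in heterozygous arrays, against 7.83, 7.81, 7.65, 7.83 and 7.97 in wild type arrays. Of the heterozygous arrays, 4 lay below every wild type array, and heterozygous array 4 lay above wild type array 3. The difference was -0.34 (SE 0.108, 95% interval -0.58 to -0.10), a fold of 0.79, with an unadjusted p of 0.00938 and an adjusted p of 0.349 in limma. It stayed between -0.40 and -0.28 over 24 alternative settings, with an unadjusted p under 0.05 in all 24 and an adjusted p of 0.138 to 0.663. The share of all genes past that unadjusted p was 11.0%, so 1 of 30 members is below the background.

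H2bc4, like H2bc21 a gene with polyadenylated transcripts, had 8.50, 10.37, 8.44, 8.63 and 8.39 in heterozygous arrays, against 10.30, 9.11, 8.34, 8.83 and 8.86 in wild type arrays. It was named after its values were seen. Heterozygous array 2 and wild type array 1 were far above the other arrays of their genotype. These are the arrays with the highest means of the macrophage, neutrophil and megakaryocyte genes in their genotype. The difference was -0.22 (SE 0.432) and limma's adjusted p was 0.829. It was -0.60 without heterozygous array 2, 0.08 without wild type array 1 and -0.30 without both, so its direction depends on these arrays. Once the mean of the macrophage genes entered the limma model it was -0.70 (SE 0.182), with an unadjusted p of 0.00263 and an adjusted p of 0.175. In that model 4 members passed the unadjusted threshold, all lower (H1f2, H2bc4, H2bu2 and H2bc21), where the share of all genes was 15.3%.

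In the other H2b members, wild type arrays 1 and 2 were the highest of their genotype. H2bc14, the H2b member of highest mean signal, had 12.33, 12.51, 12.35, 12.65 and 12.65 in heterozygous arrays, against 12.62, 12.56, 12.28, 12.15 and 12.15 in wild type arrays, with a difference of 0.14 (SE 0.126). H2bu2 had 6.83, 7.24, 7.02, 7.45 and 7.53 in heterozygous arrays, against 8.22, 8.005, 6.87, 7.13 and 7.16 in wild type arrays. Its wild type arrays 1 and 2 were above all others, and the difference was -0.26 (SE 0.262). It was -0.08 without wild type array 1, -0.13 without wild type array 2 and -0.42 without wild type array 3. H2bu1-ps, a transcribed pseudogene per RefSeq that neighbours it in the Hist3 group, had 6.72, 7.00, 6.65, 7.15 and 7.18 in heterozygous arrays, against 7.71, 7.31, 6.60, 6.63 and 6.64 in wild type arrays.

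H2bc18 had 8.52, 8.91, 8.38, 9.01 and 9.58 in heterozygous arrays, against 9.43, 9.25, 8.31, 8.48 and 8.67 in wild type arrays, and differed by 0.05. H2bc1, the testis H2b, had 5.89, 6.15, 5.82, 5.96 and 6.06 in heterozygous arrays, against 6.07, 6.02, 5.86, 5.86 and 5.81 in wild type arrays. Its arrays lay within a narrow range in both genotypes and the difference was 0.05. The remaining H2b members H2bc3, H2bc8, H2bc9 and H2bc22 had differences of 0.03 to 0.18, all with overlapping groups. Over the 11 H2b members, 7 differences were above 0 and 4 below, with a median of 0.049.

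H3 and H4 form the tetramer at the centre of the nucleosome. H3 had only 2 members above the filter. H3c4 had 7.13, 7.40, 7.27, 7.74 and 7.71 in heterozygous arrays, against 7.97, 7.73, 7.04, 7.00 and 7.30 in wild type arrays, a difference of 0.04 (SE 0.205). H3c15 had 5.82, 6.56, 5.30, 7.10 and 6.32 in heterozygous arrays, against 7.12, 6.49, 5.37, 4.80 and 5.54 in wild type arrays, a difference of 0.35 (SE 0.447). Its wild type arrays alone ran over more than 2 log2 units, so its interval of -0.63 to 1.34 leaves the direction undecided. With single arrays left out the difference lay between 0.09 (without wild type array 4) and 0.67 (without wild type array 1). H3c7 was below the filter, with 3.80, 4.00, 3.26, 4.30 and 4.11 in heterozygous arrays, against 5.28, 4.66, 3.52, 3.49 and 3.55 in wild type arrays. Only 3 of the 12 H3 genes in RefSeq have a probe set of their own (5 of 20 for H2a). With 2, this type had the fewest members tested.

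None of the 7 H4 members passed the threshold, and their median difference of 0.012 was the smallest of any type. H4c4, the H4 member of highest mean signal, had 13.13, 13.23, 13.16, 13.29 and 13.38 in heterozygous arrays, against 13.30, 13.26, 13.10, 13.08 and 13.12 in wild type arrays. All 10 arrays lay close together, and the difference was 0.06 (SE 0.0884, 95% interval -0.13 to 0.26). H4c9 had 7.94, 7.78, 7.65, 8.38 and 8.40 in heterozygous arrays, against 8.30, 8.45, 7.99, 8.04 and 8.62 in wild type arrays, a difference of -0.25 (SE 0.180). Wild type array 5 was the highest, which among members it was only for H4c9 and H2bc21 within its genotype.

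H4c6 had 10.30, 10.74, 10.21, 10.70 and 11.04 in heterozygous arrays, against 10.96, 11.18, 10.52, 10.55 and 10.35 in wild type arrays, a difference of -0.11. H4c14 of the Hist2 group had 11.80, 12.06, 11.87, 12.14 and 12.27 in heterozygous arrays, against 12.41, 12.24, 11.69, 11.65 and 11.84 in wild type arrays. H4f16, the lone Hist4 gene, had 9.21, 9.50, 9.13, 9.78 and 9.82 in heterozygous arrays, against 9.82, 9.97, 9.03, 9.21 and 9.29 in wild type arrays. Both were high in wild type arrays 1 and 2 and differed by 0.06 and 0.03. H4c3 differed by 0.01 and H4c8 by -0.14.

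**Figure D2:**
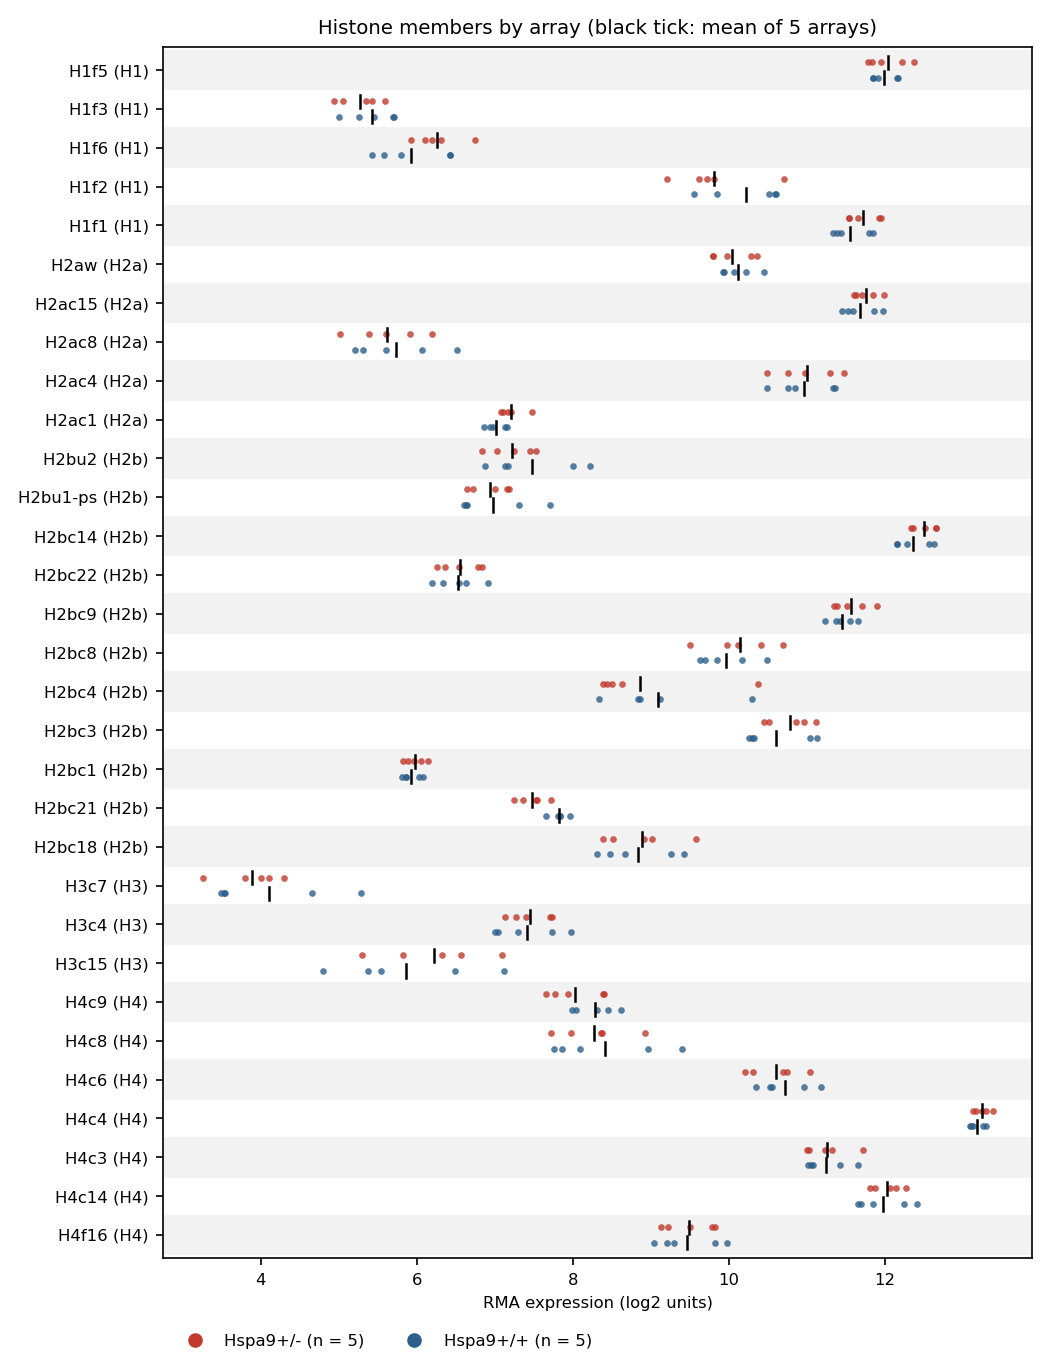
RMA expression in log2 units (horizontal axis) of the 31 members, 1 row per gene with its type, in the 5 heterozygous arrays (red, upper points) and the 5 wild type arrays (blue, lower points); black ticks are means. The groups overlap for every member, and signals of different probe sets are not to be set against each other.

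The members varied together from array to array within each genotype. Among heterozygous arrays, array 5 was highest for 18 members, array 4 for 9 and array 2 for 3, where all genes gave 29.9%, 17.1% and 21.5%. Arrays 1 and 3 were lowest for 14 and 15 members, where all genes gave 19.2% and 12.9%. Among wild type arrays, arrays 1 and 2 were each highest for 14 members and array 5 for 2, where all genes gave 24.4%, 23.2% and 20.7%. Arrays 3, 4 and 5 were each lowest for 10 members, where all genes gave 21.2%, 24.0% and 8.87%. The mean deviation of the members from their own 10-array means was -0.27, 0.09, -0.28, 0.20 and 0.26 in heterozygous arrays, against 0.39, 0.33, -0.28, -0.26 and -0.18 in wild type arrays. This spread within the genotypes was larger than the difference between their means. The 3 exceptions in heterozygous array 2 were H1f2, H2bc4 and the testis gene H2bc1.

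**Figure D3:**
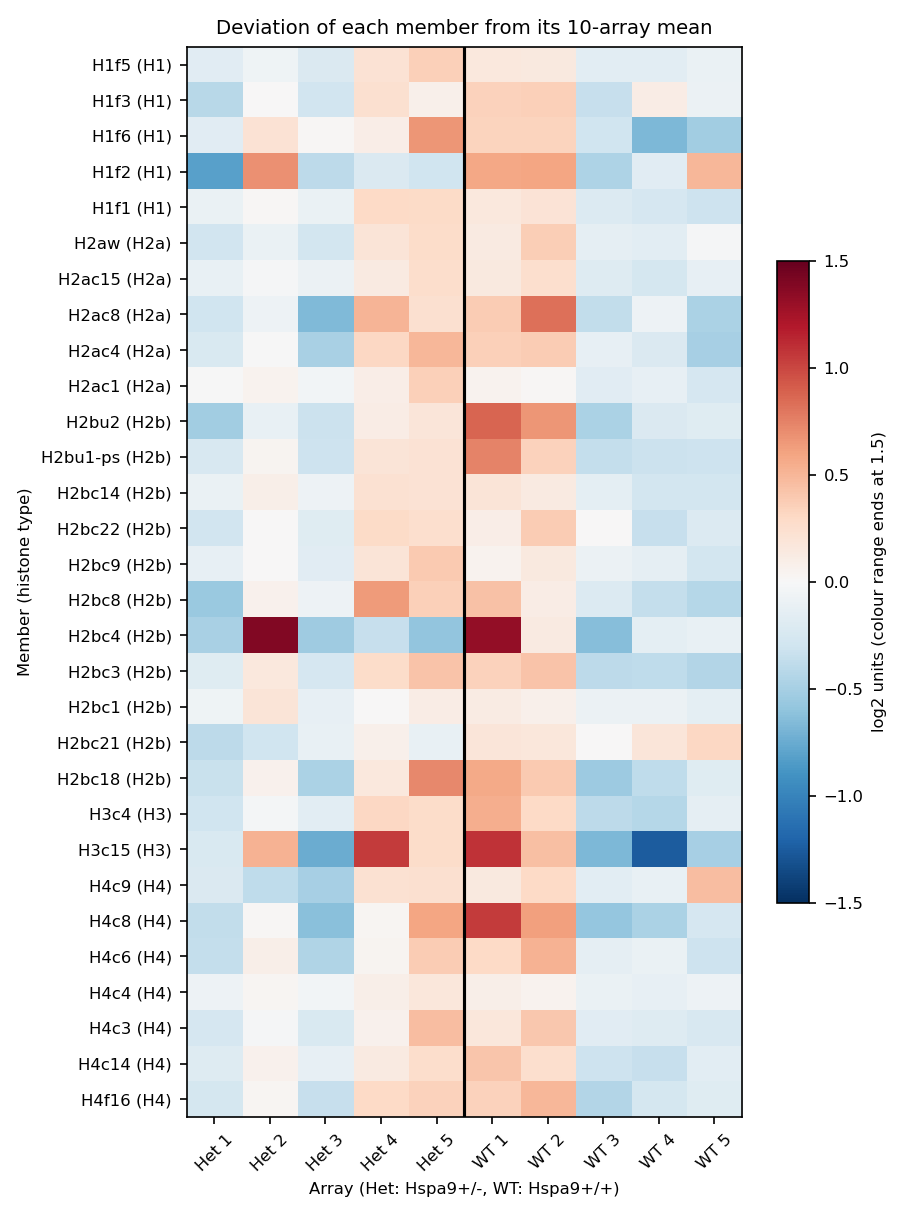
Deviation of each of the 30 members (rows, with histone type) from its own 10-array mean, in log2 units by colour, for the 5 heterozygous arrays (left) and 5 wild type arrays (right). Heterozygous arrays 4 and 5 and wild type arrays 1 and 2 are raised in most rows. H1f2 and H2bc4 are raised in those wild type arrays but not in those heterozygous arrays. H2bc21 is highest in wild type array 5 and is not raised in heterozygous array 5.

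Other measures moved with the arrays too, and their part in this pattern was not tested. Histone genes are short, with a median genomic span of 498.5 bases for the members. The 641 other protein-coding genes with a span up to 2 kb deviated by -0.01, 0.06, 0.02, 0.02 and 0.20 in heterozygous arrays, against -0.01, 0.05, -0.17, -0.16 and 0.00 in wild type arrays. The 3550 with a span over 50 kb deviated by 0.07, 0.03, 0.06, -0.06 and -0.18 in heterozygous arrays, against 0.01, -0.11, 0.09, 0.09 and 0.00 in wild type arrays. Within the heterozygous arrays, short genes were thus highest in array 5, as the members were. Within the wild type arrays they were highest in array 2 and, like the members, low in arrays 3 and 4. Heterozygous array 4 and wild type array 1 did not stand out among them. The macrophage marker means given above were highest in heterozygous array 2 and wild type array 1. Of these, wild type array 1 had the highest member mean of its genotype and heterozygous array 2 did not.

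Other genes of S phase had an order of arrays that differed in part. The list of DNA replication and G1/S genes had 42 genes tested, with a mean of 8.80, 8.28, 8.76, 8.94 and 8.84 in heterozygous arrays, against 8.28, 8.65, 8.98, 8.94 and 8.87 in wild type arrays. Among heterozygous arrays it was highest in arrays 4 and 5, as the histone mean was. It was lowest in heterozygous array 2 and wild type array 1, and the histone mean was highest in that wild type array. At an unadjusted p under 0.05 limma gave 1 of the 42 higher and 0 lower (all genes 6.79% and 4.25%), with a median difference of 0.00. That gene was Gins2, a subunit of the GINS complex of the replicative helicase, at 0.34 (unadjusted p = 0.0319, adjusted p = 0.427 in limma). Dbf4, the activator of the Cdc7 kinase, differed by -0.54, Tyms, which makes thymidylate, by 0.30, and Rfc4, of the clamp loader, by -0.18, none past the threshold. As a covariate, this list's mean left 0 members past the adjusted threshold.

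Genes of G2 and mitosis had 25 tested, 0 past the unadjusted threshold (all genes 11.0%) and a median difference of -0.16. Their mean was 9.45, 8.86, 9.15, 9.01 and 8.70 in heterozygous arrays, against 8.88, 8.90, 9.50, 9.59 and 9.17 in wild type arrays. Heterozygous array 5, where most histone members peaked, was the lowest heterozygous array here. Nusap1, a spindle protein, differed by -0.45, the kinases Aurka and Cdk1 by 0.26 and 0.22, and the cyclin Ccnb2 by -0.16.

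The factors that make and remove histone mRNA showed no change past the threshold. Of 20 genes tested, 0 passed the unadjusted threshold (all genes 11.0%), 16 differences were below 0 and the median was -0.13. Of all genes tested, 61.3% lay above 0. Npat had 7.35, 6.75, 6.58, 6.51 and 5.68 in heterozygous arrays, against 6.92, 6.58, 7.87, 7.84 and 7.09 in wild type arrays. Heterozygous array 5 was the lowest and wild type arrays 3 and 4 the highest, and the difference was -0.68 (SE 0.324, unadjusted p = 0.0579, adjusted p = 0.465 in limma). Casp8ap2, also called FLASH, which joins Npat in the histone locus body, had 7.07, 6.14, 6.16, 5.60 and 5.52 in heterozygous arrays, against 6.21, 5.81, 7.38, 7.83 and 6.44 in wild type arrays. Its difference was -0.64 (SE 0.405). Slbp had 9.15, 8.81, 9.27, 9.17 and 8.97 in heterozygous arrays, against 8.64, 9.17, 9.59, 9.58 and 9.32 in wild type arrays, a difference of -0.18 (SE 0.179).

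Npat and Casp8ap2 thus had their lowest heterozygous values in arrays 4 and 5, where histone members were high. For Npat, array 4 (6.51) was close to array 3 (6.58), where the member mean was the lowest of the heterozygous arrays (8.86). Genes outside this list were low in heterozygous arrays 4 and 5 too. The genes with a span over 50 kb deviated by -0.06 and -0.18 in these arrays, and Ptprc had its lowest values there (8.33 and 7.89). Lsm10, a protein of the U7 particle, differed by 0.35. The transcription factor gene Creb1 differed by -0.36, the cleavage factor gene Cstf3 by -0.35 and the kinase gene Cdk2 by -0.23. None passed the threshold.

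Chaperones that carry new histones to DNA had 21 genes tested, with a median difference of -0.18. At an unadjusted p under 0.05, 0 were higher and 1 lower (all genes 6.79% and 4.25%). The gene was Asf1a, which hands H3 and H4 on for assembly. It had 9.02, 8.82, 8.99, 8.75 and 8.44 in heterozygous arrays, against 8.96, 9.16, 9.17, 9.32 and 9.16 in wild type arrays. Wild type array 1 lay inside the heterozygous range, and the difference was -0.35 (SE 0.124, unadjusted p = 0.0164, adjusted p = 0.382 in limma). Atrx, a remodeller that works with the H3.3 chaperone Daxx, differed by -0.86, Hat1, which acetylates new H4, by -0.27, and Ipo4, the importin of H3 and H4, by 0.17, none past the threshold.

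Histone genes that are expressed outside S phase had 9 tested and 0 past the unadjusted threshold (all genes 11.0%), with a median difference of -0.03. Their mean was 8.92, 8.83, 9.005, 9.07 and 9.11 in heterozygous arrays, against 8.997, 9.08, 8.83, 8.92 and 9.07 in wild type arrays. Unlike the members, they had wild type array 5 near the top. Cenpa, the centromeric H3, differed by -0.09, Macroh2a1, of the macroH2a variants, by -0.12, the linker histone H1f10 by 0.29 and the spermatid linker histone H1f7 by 0.18.

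**Figure D4:**
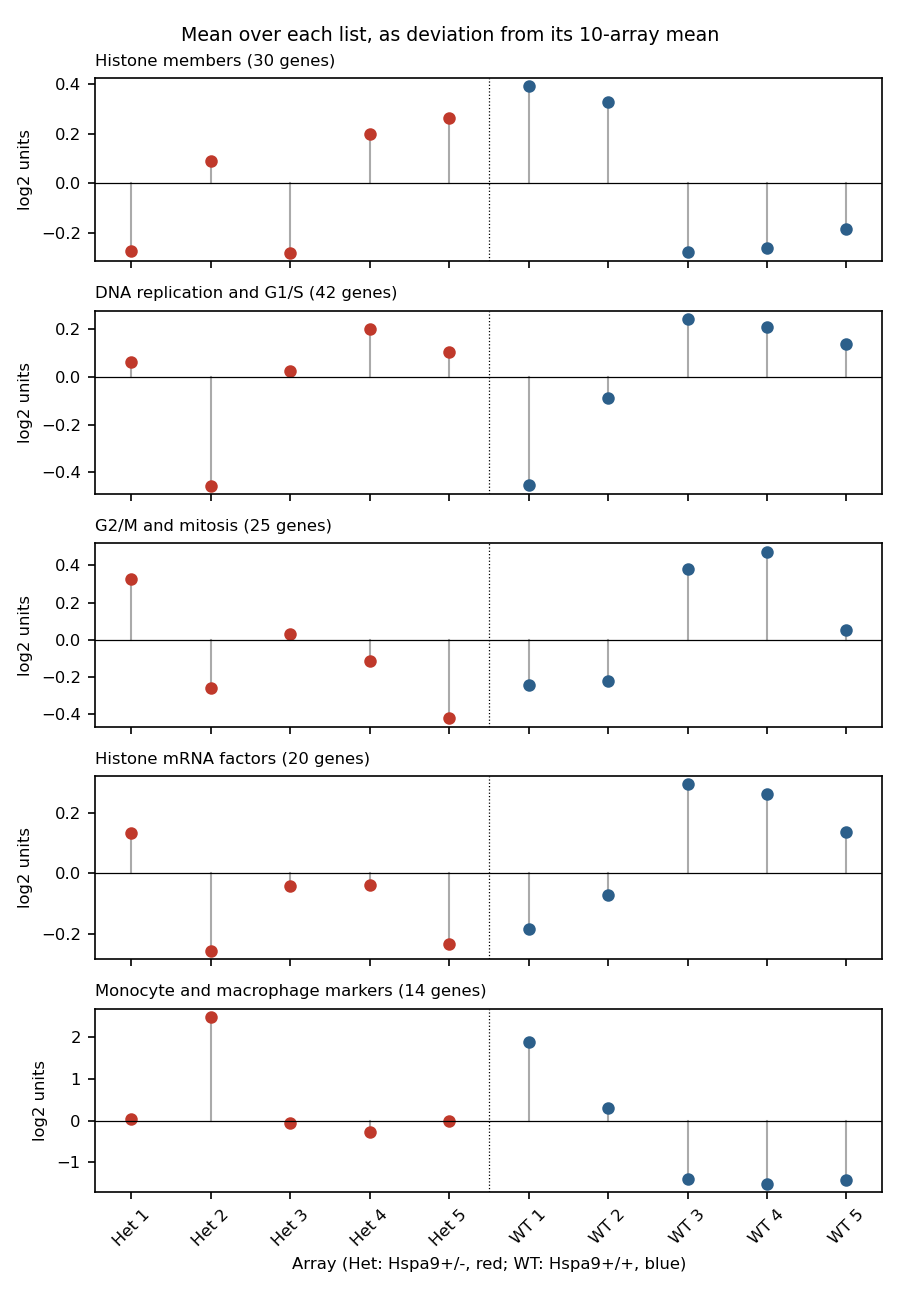
Mean over each gene list in each array, as deviation from the list's 10-array mean in log2 units (vertical axes, which differ in scale), for heterozygous arrays (red, left) and wild type arrays (blue, right). The histone members are high in wild type array 1, where the DNA replication list is low and the macrophage markers are high.

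The array resolves only part of this gene family, and each member's value carries that limit. RefSeq lists 70 genes with such an older symbol, of which 31 have a probe set of their own, 38 are annotated only in probe sets shared by several genes and 1 has none. The share with a probe set of its own was 5 of 6 for H1, 5 of 20 for H2a, 11 of 19 for H2b, 3 of 12 for H3 and 7 of 13 for H4. Coding regions of the core histone genes are nearly identical, so probes annotated to 1 gene may also read close copies, and values of single members are uncertain in that respect.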

How the data were processed

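The authors deposited gene-level log2 values, computed by RMA in Affymetrix Expression Console per the labels. Which versions and annotation they used is not given in the sources used here. Per the labels' protocols, cDNA was made with a NuGEN kit from RNA of B220+ cells sorted into TRIzol. RMA corrects background, gives all arrays the same distribution and combines the probes within each probe set, so a shift shared by most genes would be largely removed. The table held 35556 probe sets on 10 arrays with medians of 5.38 to 5.49 log2 units. Their number limits the precision.

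The platform annotation gave 1 symbol to 21789 probe sets, several to 1621 and none to 12146; 21698 of the first kind matched the RefSeq gene table (GRCm38.p6), used for names, chromosomes and gene spans. The probe set of highest mean stood for each of 19938 genes, and 14953 above the 25th percentile of the means (4.52) were tested with limma (version 3.58.1, R version 4.3.3; linear fit with eBayes, heterozygous minus wild type, Benjamini-Hochberg over all genes, threshold 0.05). The fit was checked on simulated data. The members, lists and naming rule were chosen with earlier results of these data known. All members may be named. Every array's values are given for the 3 of smallest p and the 1 of highest mean per type, those outside Hist1 and the testis genes. Of the related lists, Npat, Slbp, Casp8ap2 and up to 4 others of smallest p per list are named, and Hspa9 and Ptprc always. H2bc4 and Cd79a were chosen after their values were seen, as was the split by gene span, for which 99.7% of the genes tested had a value. The alternatives were other filters, probe set rules, normalizations, variance models, weighted arrays, a block for the replicate number, list means as covariates and arrays left out.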

Additional observations from a re-analysis of the deposited data

Results flagged for a closer look

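Among the 118 groups of 5 arrays examined for the named genes and members, 4 held an array far from the other 4 of its genotype by Dixon's test, where chance gives about 1 in 20. The values are given without an explanation. H2bc4 had 10.37 in heterozygous array 2 and 8.39 to 8.63 in the other heterozygous arrays. The macrophage marker mean was highest in that array too (9.46 against at most 7.01 in the other heterozygous arrays). So were the neutrophil (7.46) and megakaryocyte (7.35) means. Macroh2a1 had 9.774 in heterozygous array 2 and 10.35 to 10.43 in the others. Lsm10 had 7.358 in heterozygous array 3 and 7.77 to 7.89 in the others. Tyms had 8.479 in wild type array 1 and 8.95 to 9.13 in the other wild type arrays.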

How the results depend on the processing

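No member passed the adjusted threshold in any of the 24 alternatives; the smallest adjusted p was 0.138, for H2bc21 with array weights in limma. The count of members past the unadjusted p was 1 in the main fit and lay between 1 and 2 when single arrays were left out (2 without heterozygous replicate 2, where all genes gave 12.8%). It was 2 with array weights (H1f6 higher, H2bc21 lower; all genes 20.6%), 2 with the replication list as covariate (all genes 16.5%), 2 without wild type replicate 1 and heterozygous replicate 2 together (16.1%), and 4 in the model with macrophage markers (15.3%). The median difference of the members was 0.041 in the main fit, -0.002 after cyclic loess, 0.017 after quantile normalization, -0.066 in the macrophage model, and -0.047 to 0.118 with single arrays left out. The cause of these shifts was not tested. Of 718 member values under the alternatives, 718 lay within 1 pooled SD of the main value. That margin is wide, as the median pooled SD was 0.325 and the median absolute member difference 0.117. In the macrophage model H2bc4 moved from -0.22 to -0.70 and H3c15 from 0.35 to -0.01, both within it. Over the alternatives 17 members changed sign somewhere and 13 did not. Over all genes, array weights called 137, leaving out wild type replicate 1 called 22, both arrays 26, the replication covariate 10 and leaving out heterozygous replicate 2 called 3. Hspa9 stayed lower throughout (-0.84 to -0.57).

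No pairing of the mice by replicate number was seen: correlations of same-numbered arrays were between -0.53 and 0.53. Of the heterozygous arrays, 0 of 5 correlated best with their own number. With so few arrays this cannot exclude a pairing. With the replicate number as a block, 0 members passed the adjusted and 1 the unadjusted threshold, with a median of 0.041, and 8.96% of all genes passed the unadjusted one. The number of arrays, 5 per genotype, limits what the fits can detect.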

Other observations

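The 38 histone genes without a probe set of their own are annotated to 26 probe sets, each shared by several genes, which were fitted after the other results had been seen. Their genotype differences ran from 0.006 to 0.374 with a median of 0.124, and limma gave 0 of 26 at an unadjusted p under 0.05, with a smallest adjusted p of 0.526. The 10 probe sets of H3 genes lay between 0.12 and 0.17, the 7 of H2b genes between 0.01 and 0.03, and 5 of the 6 of H4 genes between 0.01 and 0.02. The sixth, annotated to H4c17 and H4c11, gave the 0.374. Many of these probe sets are annotated to the same genes, members included, so they are not independent. The mean over the 10 H3 probe sets was 12.91, 13.06, 12.94, 13.18 and 13.28 in heterozygous arrays, against 13.20, 13.15, 12.78, 12.72 and 12.83 in wild type arrays. As with the mean of the members, the highest arrays were 4 and 5 among the heterozygous and 1 and 2 among the wild type ones.

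Mki67, the proliferation marker, was looked at after its values were seen and had 10.24, 9.06, 9.08, 8.41 and 7.96 in heterozygous arrays, against 9.19, 8.66, 10.18, 10.76 and 9.23 in wild type arrays. It was low in heterozygous arrays 4 and 5 and in wild type array 2, where the histone members were high; the difference between genotypes was -0.66 (SE 0.466, limma adjusted p = 0.569).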
